A study of Rattus norvegicus with 8 samples.

Results

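Granulocyte genes were examined in liver cells cut out by laser microdissection (LMD) from rats whose livers were regenerating after retrorsine and partial hepatectomy. The genes were S100a8, S100a9, Retnlg, Mmp8, Camp, Mpo and Il1b. Their probes were taken from the array design by gene name, which gave 11 probes for 7 genes, out of 45598 non-control probes for 36174 gene names. The set was chosen by measured values: S100a8, S100a9 and Retnlg were known to be lower with BM-MCs on these SHPC arrays, so the values of all 7 genes are given as a description, without a test.

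RNA was labelled with a single dye and hybridised to 8 arrays of an Agilent rat expression design. Small hepatocyte-like progenitor cells (SHPCs) are clusters of small hepatocytes that grow in such livers while retrorsine, a plant alkaloid, blocks the division of the other hepatocytes. Control SHPCs (n = 3) came from livers given no cells, and SHPCs with BM-MCs (BM-MC SHPCs, n = 3) came from livers that received cultured bone marrow mesenchymal cells (BM-MCs). Mature hepatocytes (MHs, n = 2) were taken as cut from the control livers. The discussion of the paper can be read as placing them in livers with BM-MCs. Either way all 3 groups shared retrorsine and hepatectomy. The labels give the strain of every sample as F344, DPPIV+, whereas the methods describe female F344 recipients of the DPPIV- strain and DPPIV+ donor cells, and give no age for the recipients. The BM-MCs were an adherent culture expanded from bone marrow and were not sorted. No array titled as MHs from livers with BM-MCs was analysed here. The labels give no collection time, the methods give 1 time after transplantation at which recipient livers were taken, and nothing states which animal a sample came from. The errors therefore cover sample-to-sample spread, part of which can be technical.

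Granulocytes, above all neutrophils, build their stores in stages in the bone marrow. Promyelocytes make the primary granules with myeloperoxidase (Mpo), myelocytes make the secondary granules with cathelicidin (Camp), and the collagenase Mmp8 belongs to the same later stages. S100a8 and S100a9 are calcium-binding proteins that pair as calprotectin and fill the cytosol of neutrophils, and monocytes carry them too. Retnlg is a resistin-like protein of myeloid cells. Il1b, the inflammatory cytokine interleukin-1 beta, is made by neutrophils and also by macrophages, including the Kupffer cells of the liver.

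The oligonucleotides that measured calprotectin are shown because the main differences rest on them. Each is 60 bases long and was designed on a transcript, so it lies in exons. On the build named in the array header (rn4) the S100a8 probe maps to chr2:182962328-182962387 on the plus strand and the S100a9 probe to chr2:182987647-182987706 on the minus strand. No annotated gene lies between S100a8 and S100a9 on chromosome 2 in RefSeq (GRCr8).
S100a8 probe: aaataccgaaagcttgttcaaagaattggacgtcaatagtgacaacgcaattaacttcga
S100a9 probe: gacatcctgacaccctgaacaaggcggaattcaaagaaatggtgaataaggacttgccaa

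Retnlg had 3 probes, and only 1 was bright enough to pass the filter. It maps to chr11:53174477-53174536 on the minus strand (rn4) and starts at base 509 of its transcript. The other probes, designed on another transcript model, start at base 147 (chr11:53175296-53175355) and at base 79 (chr11:53175364-53175877, a span of 514 bases). The final 30 bases of each are given, and the capitals mark AATAAA, the hexamer of a polyadenylation signal.
Retnlg probe from base 509: cctgcttcttgaaaAATAAAgactaatttt
Retnlg probe from base 147: gctacaggcagattggcctcctgtcctcct
Retnlg probe from base 79: aacttcttgcccatcgagataactgtccct

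RefSeq promoter windows (GRCr8, 250 bases before to 50 after the gene start, printed on the gene's strand) were at hand for 6 of the 7 genes, all but S100a8. Those of S100a9 and Retnlg, whose levels ran together over the arrays, and of Il1b, whose levels did not follow them, are printed. They were searched for TATAAA on the printed strand and, on both strands, for TTNNGCAA (C/EBP), TGANTCA (AP-1) and GAGGAAG (PU.1). Capitals mark the matches, none of which overlapped.
S100a9, chr2:178490573-178490872, minus strand: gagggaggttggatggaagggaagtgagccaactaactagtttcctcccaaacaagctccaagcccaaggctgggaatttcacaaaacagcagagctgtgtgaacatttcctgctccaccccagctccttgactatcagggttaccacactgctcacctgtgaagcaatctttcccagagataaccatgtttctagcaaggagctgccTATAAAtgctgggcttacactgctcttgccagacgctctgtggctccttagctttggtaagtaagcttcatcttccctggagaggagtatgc
Retnlg, chr11:65395590-65395889, minus strand: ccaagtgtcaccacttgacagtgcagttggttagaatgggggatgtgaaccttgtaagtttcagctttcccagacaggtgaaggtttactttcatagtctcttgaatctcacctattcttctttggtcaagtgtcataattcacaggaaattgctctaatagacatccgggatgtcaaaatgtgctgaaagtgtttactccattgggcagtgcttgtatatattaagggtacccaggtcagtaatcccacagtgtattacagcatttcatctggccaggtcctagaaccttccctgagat
Il1b, chr3:137036532-137036831, minus strand: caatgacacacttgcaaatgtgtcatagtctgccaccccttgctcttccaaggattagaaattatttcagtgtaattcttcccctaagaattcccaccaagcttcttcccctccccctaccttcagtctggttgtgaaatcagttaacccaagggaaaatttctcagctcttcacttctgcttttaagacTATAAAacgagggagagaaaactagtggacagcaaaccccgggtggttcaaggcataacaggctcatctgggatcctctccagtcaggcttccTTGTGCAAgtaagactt

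The S100a9 window held TATAAA at -42, counted from the gene start, and that of Il1b held TATAAA at -60 and TTGTGCAA at 34. The Retnlg window held no match, and the Camp window held none either. TATAAA is found in 8.8% of the 33469 promoter windows, TTNNGCAA in 10.6%, TGANTCA in 7.33% and GAGGAAG in 12.4%. The Mmp8 window held TTNNGCAA on the opposite strand at -101 and at -46, and that of Mpo held GAGGAAG on the opposite strand at -136.

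A level here is the log2 of the processed signal minus the log2 of the array's 75th percentile, so a value of 0 is as bright as that percentile. Of the 11 probes, 4 passed the filter, which asked for signal well above background on 3 or more arrays among the 7 whose marks were complete: 1 each for S100a8, S100a9, Retnlg and Il1b. All 4 were well above background on all 7 of these arrays, so none passed through 1 group alone. On each array 57.0% to 61.5% of the non-control spots with marks were well above background and none was saturated. Over 22969 probes the pairs of arrays within a group differed by an SD of 0.35 (control SHPC replicates 1 and 2) to 0.55 on the log2 scale. Some arrays stood nearer to another group than to part of their own: MH replicate 2 differed from BM-MC SHPC replicate 1 by an SD of 0.45, against 0.48 from MH replicate 1. Likewise, control SHPC replicate 3 differed from BM-MC SHPC replicate 3 by 0.48 and from the other controls by 0.55 each.

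S100a8 was lower in BM-MC SHPCs than in control SHPCs. Its levels in control SHPCs were -0.94, -0.53 and -1.37, and in BM-MC SHPCs -2.60, -2.43 and -2.21. No BM-MC value reached the lowest control. The means were -0.95 ± 0.42 (SD, n = 3) and -2.41 ± 0.19 (SD, n = 3), a log2 difference of -1.46 (SE 0.23), or 2.76-fold lower.

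S100a9 showed the widest gap. Its levels were -0.71, -0.33 and -0.54 in control SHPCs, and -2.28, -2.73 and -2.08 in BM-MC SHPCs, again without overlap. The means were -0.53 ± 0.19 and -2.37 ± 0.33 (SD, n = 3 each), a log2 difference of -1.84 (SE 0.20), or 3.58-fold lower.

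Retnlg had levels of -3.85, -3.58 and -4.20 in control SHPCs, and of -5.20, -5.22 and -5.12 in BM-MC SHPCs, where the 3 values were nearly equal. The log2 difference was -1.30 (SE 0.17), or 2.47-fold lower, and the groups did not overlap. Since these values chose the genes, nothing is read from the fact that all 3 lack overlap. Over the 23111 probes tested, 11.6% had every BM-MC value below every control value, and 0.749% were at least 2-fold lower with BM-MCs. In tissue cut by LMD, fewer cells of a type and less RNA per cell cannot be told apart.

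Il1b behaved differently. Its levels were -0.51, -0.35 and -0.94 in control SHPCs, and -0.31, -0.33 and -0.43 in BM-MC SHPCs, so the groups overlapped. The log2 difference was 0.24 (SE 0.17). Under scaling by the median of each array it was 0.049, and within the second slide set 0.58.

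The MHs did not form a group for these genes, since their replicates lay at opposite ends. S100a8 was -2.49 in replicate 1 and -0.69 in replicate 2. S100a9 was -2.40 and -0.30, and Retnlg was -5.28 and -3.75. In each of these genes MH replicate 1 fell at or near the BM-MC SHPCs, and MH replicate 2 within or above the control SHPCs. Il1b, at -1.24 and 0.74, had its lowest and its highest value of all 8 arrays in the MHs.

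**Figure D1:**
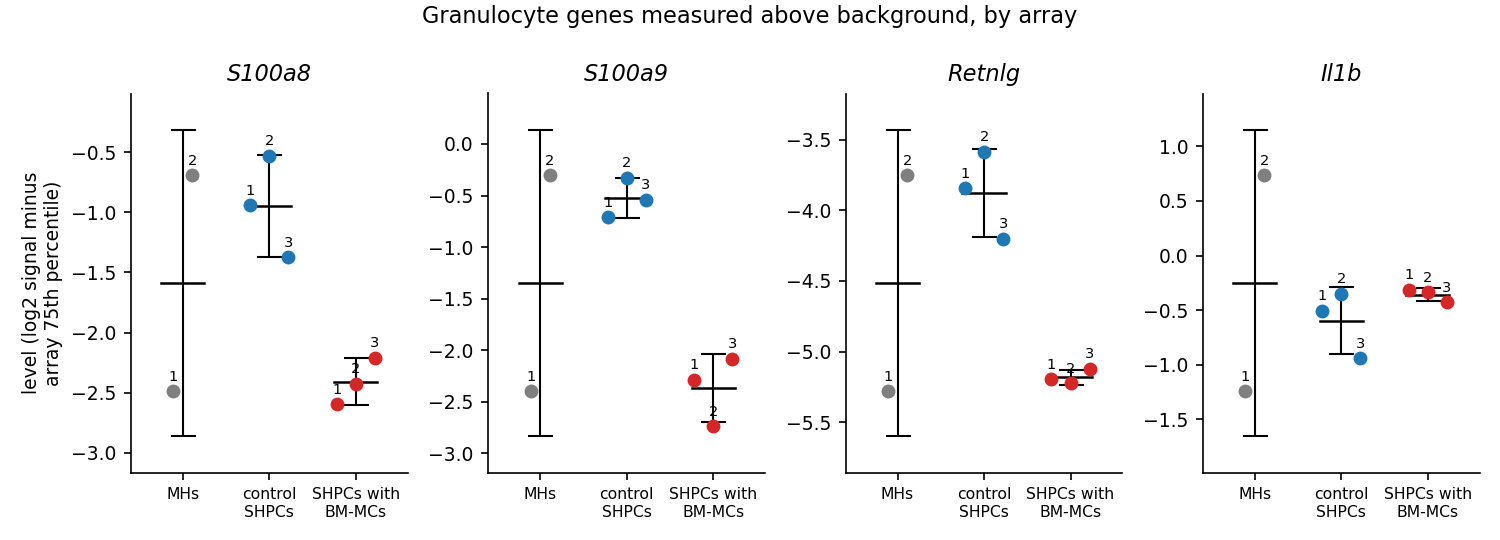
Level (log2 signal minus the array's 75th percentile) of S100a8, S100a9, Retnlg and Il1b on each array, in MHs (n = 2), control SHPCs (n = 3) and BM-MC SHPCs (n = 3). Points carry the replicate number, the horizontal line is the mean and the bars are the SD. For S100a9 the control SHPCs lie between -0.71 and -0.33 and the BM-MC SHPCs between -2.73 and -2.08, while the MHs lie at -2.40 and -0.30.

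Against control SHPCs, the MH mean was therefore intermediate and its error large. The log2 difference of MHs from control SHPCs was -0.64 (SE 0.49) for S100a8, -0.82 (SE 0.54) for S100a9 and -0.64 (SE 0.40) for Retnlg, with overlap in each. For Il1b it was 0.35 (SE 0.50), also with overlap. Without MH replicate 1 the difference for S100a9 was 0.22, and without MH replicate 2 it was -1.87, so the sign of this comparison rested on 1 array.

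BM-MC SHPCs were compared with MHs in the same fit. The log2 difference was -0.82 (SE 0.49) for S100a8, -1.02 (SE 0.54) for S100a9, -0.66 (SE 0.40) for Retnlg and -0.11 (SE 0.50) for Il1b, and the groups overlapped in all 4. For S100a9 it was -2.07 without MH replicate 1 and 0.03 without MH replicate 2. This comparison and the previous one share the MH samples, and the control SHPCs enter both comparisons with controls.

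Ordered by level, S100a9 ran from MH replicate 2 through the 3 control SHPCs and then, after a step, to the BM-MC SHPCs and MH replicate 1. The step was 1.37, while neighbouring arrays on its upper side were 0.02 to 0.21 apart and those on its lower side 0.11 to 0.34, which is about the SD between replicates (0.19 in control SHPCs and 0.33 with BM-MCs). S100a8 and Retnlg had the same arrays on either side of the step. All of these genes were chosen for a lower level with BM-MCs. The step between control and BM-MC SHPCs therefore follows from that choice, and nothing is read from its size.

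Position on the slide was checked because the arrays lay in 2 sets of 4 on 1 slide. The MHs and control SHPC replicates 1 and 2 were in the first set, and control SHPC replicate 3 and all BM-MC SHPCs in the second. Within the second set, that is against 1 control sample, the log2 difference of BM-MC SHPCs was -1.04 for S100a8, -1.83 for S100a9 and -0.98 for Retnlg. Within the first set the MHs differed from the controls by -0.85 for S100a8, -0.83 for S100a9 and -0.80 for Retnlg, with SEs of 0.53 to 0.72. With another background correction (normexp), which left out control SHPC replicate 2, the Retnlg difference shrank to -0.57, while those of S100a8 and S100a9 were -1.09 and -1.51.

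The RNA of the stored granule proteins was at or near background. The collagenase Mmp8 and myeloperoxidase (Mpo) were not well above background on any array, and the processed signal of Mmp8 reached 6.99 at most, where the dimmest spots marked as well above background gave 21.2 to 30.1. Camp had a RefSeq probe that was well above background on 1 of 8 arrays, control SHPC replicate 2. Its levels were -6.07, -5.18 and -7.23 in control SHPCs, -7.93, -7.69 and -7.81 in BM-MC SHPCs, and -8.15 and -6.26 in MHs. The higher values thus fell on control SHPCs and MH replicate 2, but below background only a bound is measured, and no fold is given. A further Camp probe, designed on an expressed sequence tag, maps in the opposite orientation and was dim on all arrays.

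Probes of the same gene differed in brightness. The Retnlg probe from base 147 was well above background on MH replicate 2 and on 1 of the 2 control SHPCs with marks, and on no BM-MC array. Its levels were -5.00, -4.77 and -6.05 in control SHPCs, and -6.00, -6.50 and -7.14 in BM-MC SHPCs, which overlapped. Since only 1 control value was marked as measured, no fold is given. The Retnlg probe from base 79 was not well above background on any array with marks. A second S100a8 probe, designed on an expressed sequence tag that the array annotation leaves unmapped, was well above background on MH replicate 2 only.

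**Figure D2:**
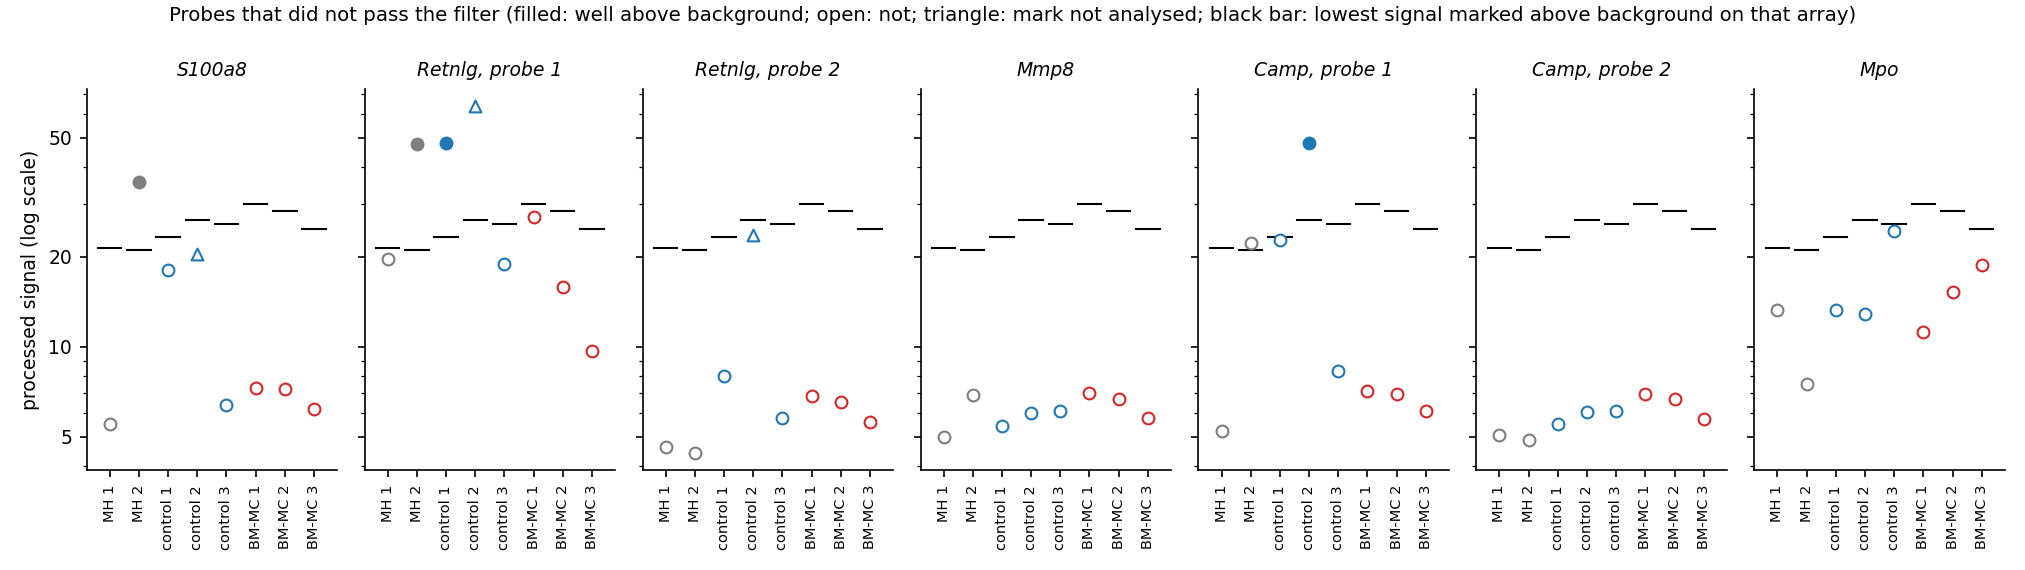
Processed signal (log scale) of the 7 probes that did not pass the filter, on each of the 8 arrays. Filled circles are well above background, open circles are not, triangles have no mark that was analysed here, and the black bar is the lowest signal marked as well above background on that array. Mmp8, Mpo, the second Camp probe and the second Retnlg probe (from base 79) have no filled circle, and the first Camp probe has 1, on control SHPC replicate 2.

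Whether granulocyte genes as a whole were lower was asked with 46 other genes on the array that mark granulocytes. Of these, 20 passed the filter and 20 were well above background on none of the 7 arrays with marks. None of the 20 tested genes was called in any of the 3 comparisons (limma, adjusted p under 0.05). Over all probes tested, 0.0216% were called when BM-MC SHPCs were set against control SHPCs, 1.13% for MHs against control SHPCs and 0.338% for BM-MC SHPCs against MHs. At an unadjusted p of 0.05 the shares of all probes were 16.6%, 19.2% and 13.3%, and the numbers of these genes 2, 7 and 3. In the first comparison 13 of the 20 genes had a higher estimate and 7 a lower one, where 46.5% of all genes were lower. The median log2 difference was 0.07, beside 0.02 over all genes tested. The 2 below an unadjusted p of 0.05 were Mmp25 and Pglyrp1, both lower. The 20 differences ran from -0.62 to 0.50. Against control SHPCs, MHs had higher estimates for 16 of the 20 (median 0.50, beside 0.06), where 42.7% of all genes were lower. All 7 below an unadjusted p of 0.05 were higher. The macrophage and monocyte list also had higher estimates there, for 16 of 17 tested genes (median 0.56). Against MHs, BM-MC SHPCs had lower estimates for 18 of the 20 (median -0.40, beside -0.02), where 52.7% of all genes were lower, and all 3 below an unadjusted p of 0.05 were lower. These last comparisons share the MH samples.

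None of the 9 primary granule genes passed the filter. Elane, Prtn3 and Ctsg, the serine proteases of these granules, were well above background on none of the 7 arrays, while Bpi was so on 1 array with BM-MCs. Mpo, of the same granules, had processed signals of 7.49 to 24.3, none of them well above background.

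Of 10 genes of the secondary and tertiary granules, 5 were tested, and 4 of them had lower estimates with BM-MCs. Slpi, a protease inhibitor, differed by -0.36 (SE 0.32, adjusted p = 0.59 from limma). The ficolin Fcnb differed by 0.25 (SE 0.18) and the membrane-bound metalloproteinase Mmp25 by -0.40 (SE 0.12, adjusted p = 0.22 from limma). Ltf, Ngp and Mmp9 were well above background on no array with marks.

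Surface receptors were measured for 6 of 17 genes. Ptafr, the receptor for platelet-activating factor, differed by 0.24 (SE 0.22) with BM-MCs, the Fc receptor Fcgr3a by 0.25 (SE 0.16) and the integrin Itgam by 0.15 (SE 0.13). Cxcr1, Cxcr2 and Csf3r, receptors that mark mature neutrophils, were well above background on none of the 7 arrays. All 6 tested receptors had higher estimates in MHs than in control SHPCs, where 42.7% of all genes were lower. Their median was 0.60 beside 0.06 over all genes. Of the 6, 4 passed an unadjusted limma p of 0.05, as did 19.2% of all probes, and none passed the adjusted threshold.

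All 7 genes of the oxidase and leukotriene machinery were tested. Cyba, Ncf1 and Ncf4, subunits of the phagocyte oxidase, differed by 0.09 (SE 0.23), 0.12 (SE 0.18) and 0.06 (SE 0.23) between BM-MC SHPCs and control SHPCs. Of the transcription factors, Spi1 (PU.1) differed by 0.50 (SE 0.28) and Cebpe, which drives late granulocyte maturation, by 0.21 (SE 0.34). Macrophages express the oxidase genes, Spi1 and most of the tested receptors too.

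**Figure D3:**
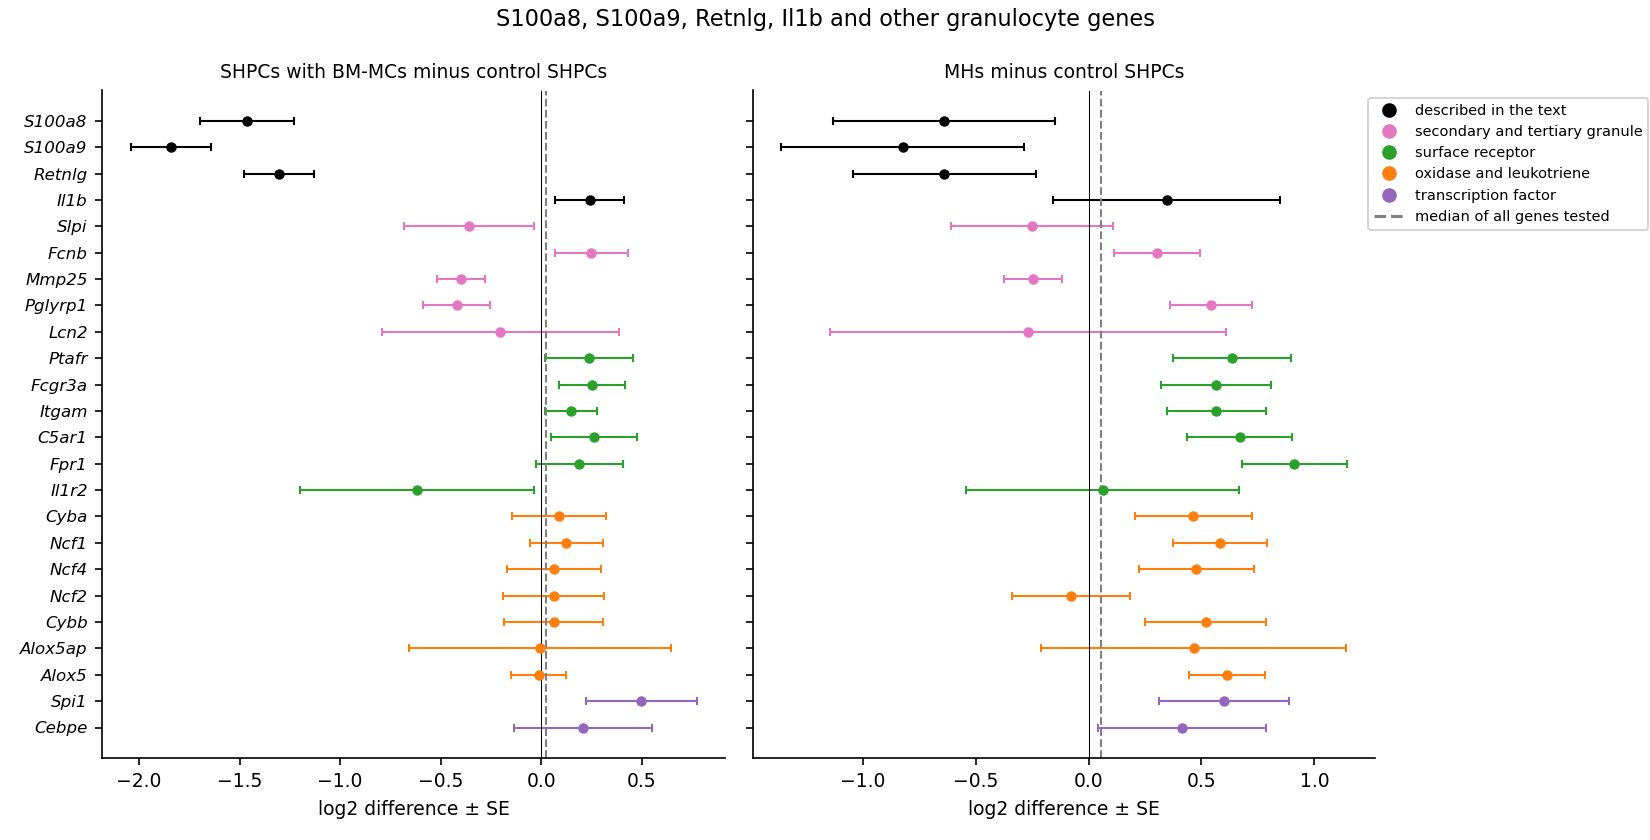
Log2 difference with its SE for S100a8, S100a9, Retnlg and Il1b (black) and for the 20 other granulocyte genes tested (colours by role), between BM-MC SHPCs and control SHPCs (left, n = 3 and 3) and between MHs and control SHPCs (right, n = 2 and 3). The dashed line is the median of all genes tested. On the left S100a8, S100a9 and Retnlg, which were chosen by this difference, lie between -1.84 and -1.30, and the 20 other genes between -0.62 and 0.50.

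The genes around S100a8 and S100a9 were followed through their family and receptors. Of 17 genes, 13 were tested, and none was called between BM-MC SHPCs and control SHPCs, where the median log2 difference was -0.12. At an unadjusted limma p of 0.05, which 16.6% of all probes passed in either direction, 2 genes were higher and none lower. They were calprotectin receptors, Tlr4 at 0.99 (SE 0.33, limma adjusted p = 0.24) and Ager at 1.03 (SE 0.25, limma adjusted p = 0.17), and were named after their values were seen. The brightest, the receptor Bsg and S100a16, differed by 0.01 (SE 0.18) and -0.13 (SE 0.11). In MHs 1 gene was called: S100a4 was lower than in control SHPCs by -0.83 (SE 0.14, limma adjusted p = 0.042), with levels of -2.13 and -2.06 against -1.20, -1.23 and -1.34. Of all probes tested 0.917% were called lower and 0.216% higher in that comparison. The S100a4 call was lost in 15 of 22 other settings, and averaged over both S100a4 probes the difference was -0.43.

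The IL-1 pathway around Il1b was measured for 18 of 18 genes, and none was called in any comparison. The adaptor Myd88 differed by 0.29 (SE 0.12) and the pore-forming Gsdmd by 0.05 (SE 0.10) between BM-MC SHPCs and control SHPCs, and the list's median was 0.11. At an unadjusted limma p of 0.05, 2 were higher and 1 was lower in that comparison, where 16.6% of all probes passed. Of 12 neutrophil attractants, 5 were tested and none was called. The chemokine Ccl3 differed by 0.28 (SE 0.31) and Csf3, the growth factor of the neutrophil lineage, by -0.24 (SE 0.21). Around Retnlg, Mmp8 and their relatives, 7 of 14 genes of the resistin family, the matrix metalloproteinases and their inhibitors were tested and none was called. All 7 had estimates above 0 with BM-MCs, with 0.20 (SE 0.15) for Mmp14 and 0.06 (SE 0.22) for Timp2. They ran from 0.005 to 0.40 with a median of 0.06, beside 0.02 over all genes, of which 46.5% were lower.

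Markers of the other cells that a cut could hold were compared array by array with the granulocyte genes. The sum of the linear levels (1 being the array's 75th percentile) of 12 of 17 erythroid and megakaryocyte genes was 33.6, 32.3 and 108 in control SHPCs and 15.3 to 21.3 in BM-MC SHPCs. It was 20.1 and 40.1 in MHs. It was thus lower on MH replicate 1 and on the BM-MC arrays, the same 4 arrays on which S100a8, S100a9 and Retnlg were lower. Those genes were chosen for being lower on the BM-MC arrays, so their side of that match was fixed in advance. The globins led the erythroid and megakaryocyte sum. Between BM-MC SHPCs and control SHPCs, Hba-a1 differed by -1.46 (SE 0.48, adjusted p = 0.24 from limma) and Hbb-b1 by -1.63 (SE 0.48, adjusted p = 0.22 from limma). None of the 12 genes was called, 7 were lower and 1 higher at an unadjusted limma p of 0.05, and the median was -0.89. Of all probes, 16.6% passed that unadjusted cut in either direction. Control SHPC replicate 3 held the highest sum and yet the lowest S100a8 and Retnlg of the controls. The defining markers Gata1 and Epb42 were well above background on no array with marks. The part of blood cells in the granulocyte gene values was not tested.

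The white cell lists did not follow the same arrays. The sum over 13 of 14 pan-leukocyte genes was 15.4 to 23.1 in control SHPCs, 18.7 to 22.5 with BM-MCs, and 24.0 and 30.6 in MHs. Its brightest genes, Tyrobp and Laptm5, differed by 0.08 (SE 0.20) and 0.09 (SE 0.22) with BM-MCs. The sum over 17 of 21 macrophage and monocyte genes was 58.8 to 86.5 in control SHPCs, 73.2 to 101 with BM-MCs, and 115 and 116 in MHs, and the Kupffer cell lectin Clec4f and the complement gene C1qb differed by 0.37 (SE 0.22) and 0.24 (SE 0.21). The 20 other granulocyte genes summed to 8.10 to 13.1 in control SHPCs, 9.88 to 12.5 with BM-MCs, and highest, at 17.0, on MH replicate 2. The oxidase subunit Cyba led this sum, with log2 levels of 2.33 to 3.12 in control SHPCs and 2.71 to 3.04 with BM-MCs. On MH replicate 2 its level was 3.48. The sum therefore mostly follows Cyba. With each gene centred and weighted equally, the mean log2 was -0.29 to 0.0093 in control SHPCs and -0.39 to 0.083 with BM-MCs.

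The remaining lists also held no call between BM-MC SHPCs and control SHPCs. Of 21 lymphocyte genes 12 were tested, with a median of -0.16 and 7 lower estimates. The brightest were Cd22 at 0.34 (SE 0.14), the highest of the list, and Gzma at 0.01 (SE 0.31). At an unadjusted limma p of 0.05 the T cell receptor subunits Cd3d, at -0.30 (SE 0.10), and Cd3g, at -0.58 (SE 0.17), were lower and none was higher. Of all probes, 16.6% passed the same cut. Of 13 eosinophil, basophil and mast cell genes 3 were tested, with 0.25 (SE 0.23) for Hdc and -0.74 (SE 0.63) for Fcer1a. All 14 sinusoidal and stellate genes on the array were tested, with 0.32 (SE 0.12) for Kdr and 0.23 (SE 0.20) for Col1a2. In this list Rgs5, a pericyte gene, was called higher in MHs than in control SHPCs by 1.09 (SE 0.17, limma adjusted p = 0.034), a call lost in 15 of 22 other settings. The 15 hepatocyte genes summed to 1422 to 1745 over the 8 arrays, and the transport proteins Tf and Ambp differed by -0.13 (SE 0.14) and 0.06 (SE 0.12). The hepatocyte genes show hepatocyte RNA on every array. As a list they did not tell MHs from control SHPCs, with no call and a median of -0.095. Single genes differed from -0.92 to 1.68 there. At an unadjusted limma p of 0.05, which 19.2% of all probes passed, 1 was higher and 2 were lower in MHs.

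**Figure D4:**
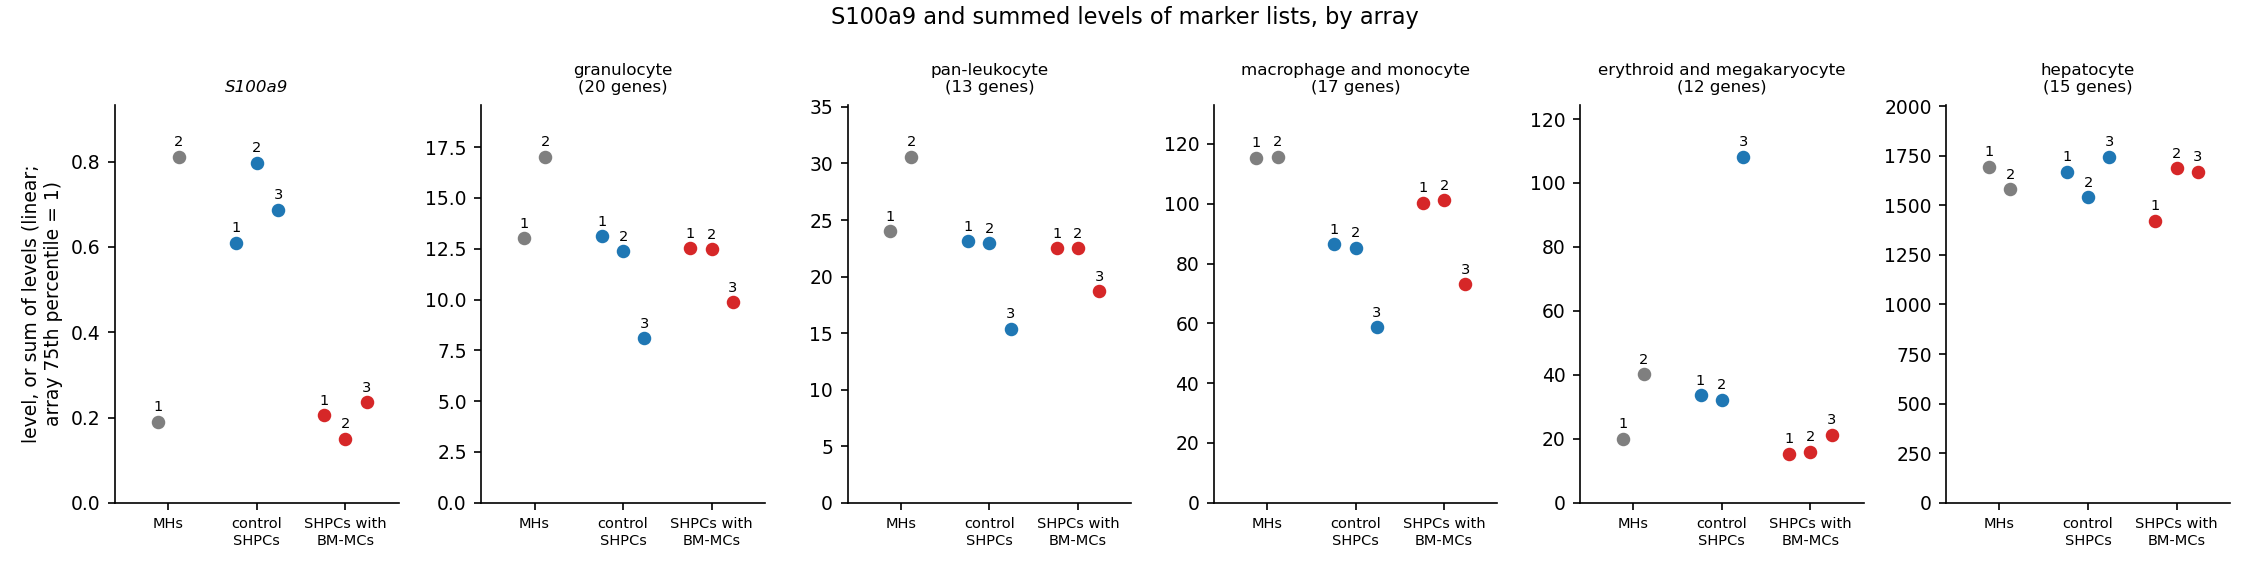
Level of S100a9 and summed levels of 5 marker lists on each array (linear scale from 0, the array's 75th percentile being 1), in MHs (n = 2), control SHPCs (n = 3) and BM-MC SHPCs (n = 3), with replicate numbers. The erythroid and megakaryocyte sum is 15.3 to 21.3 with BM-MCs and 32.3 to 108 in control SHPCs, while the pan-leukocyte and granulocyte sums overlap between these groups. Cyba leads the granulocyte sum.

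The genes most like S100a9 were ranked by Pearson correlation over the 8 arrays, among 2856 probes with a gene name and an SD of at least 0.5. The 8 arrays fell into an upper and a lower set of 4, so r mostly describes that split and is given without a p-value. Retnlg (0.97) and S100a8 (0.96) came first, before Sstr5 (0.93), Mcpt8 (0.88), Fut8 (0.87), Tubb2a (0.86), Serpinb1a (0.86), LOC102549365 (0.82), Hbbl1 (0.81) and Acta1 (0.81). S100a8 and Retnlg had an r of 0.99 with each other. Both were chosen, with S100a9, for a lower level with BM-MCs on these arrays, so their high ranks follow in part from that choice. Il1b had an r of only 0.35 to 0.43 with the other 3, and its nearest genes were Eno2 (0.95), LOC103690369 (0.91), Cnot4 (0.89), Tnfrsf14 (0.89) and Spic (0.87). In spread over the arrays, the SD of S100a9 was at the 97.4 percentile of the probes tested, that of S100a8 at 95.4, that of Retnlg at 93.2 and that of Il1b at 88.1. For S100a9, S100a8 and Retnlg a wide spread follows from how they were chosen, so nothing is read from these percentiles.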

How the data were processed

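Total RNA from LMD samples was labelled with Cy3 and hybridised to 8 Agilent rat arrays (62976 features). Intensities were the processed signals that the authors deposited, made with Agilent Feature Extraction 10.7 according to the submitters' processing notes. They matched the scanner files to within 1.19e-06 (relative difference). Scanner files held marks for all 58717 non-control spots on 7 arrays. That of control SHPC replicate 2 held 19479 such spots, so its remaining marks were not analysed here.

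Signals were scaled to each array's 75th percentile after taking log2, outlier spots were left out, and spots of a probe were averaged. The 23111 probes that were well above background on 3 or more of 7 arrays were fitted with limma 3.58.1 (R 4.3.3). P-values were adjusted by Benjamini-Hochberg and called under 0.05. The fit of BM-MC SHPCs against control SHPCs held 6 samples, and fits with MHs all 8. Each list gene was represented by the brightest probe tested for it. The number of arrays limits the precision. On simulated data of this size, over 22988 probes, 42% of 2-fold and 84% of 4-fold changes were recovered for BM-MC SHPCs against control SHPCs. The simulation changed 100 probes by each fold, drew noise independently for every probe and held no effect of slide set. The real arrays can differ in these respects, so the rates may not hold for them.

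The genes and lists were chosen with earlier results of these data known. Besides the 7 genes, named genes were those called in a list, the 3 brightest tested genes of each granulocyte role, the 2 brightest of every other list, and the genes most correlated with S100a9 (10) and Il1b (5). Other genes of small counts were named after their values were seen. Alternatives covered scaling, background correction, filter, outliers, slide set, replicate block, samples, probe choice and test. Those for the other lists, S100a4 and Rgs5 were chosen after seeing the data.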

Additional observations from a re-analysis of the deposited data

How the results depend on the processing

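S100a8, S100a9 and Retnlg kept a negative difference between BM-MC SHPCs and control SHPCs in all 19 other settings each, from -1.68 to -1.04, -2.03 to -1.51 and -1.49 to -0.57. Scaling by array medians moved the median of all probes by -0.19 there. The values that moved by more than the replicate SD were those with normexp on 7 arrays (-1.09, -1.51 and -0.57) and, for S100a8 and Retnlg, with the slide set as a block or within the second set (-1.04 and -0.98 both ways). With each sample left out in turn, S100a8 ran from -1.68 to -1.25, S100a9 from -1.98 to -1.66 and Retnlg from -1.47 to -1.16. For MHs minus control SHPCs these ranges were -1.54 to 0.26, -1.87 to 0.22 and -1.40 to 0.13, with the positive ends without MH replicate 1. For BM-MC SHPCs minus MHs they were -1.72 to 0.078, -2.07 to 0.030 and -1.43 to 0.10, with the positive ends without MH replicate 2. The Il1b difference ran from -0.64 to 1.34 and from -1.10 to 0.88 in these comparisons. A lone MH sample was assumed to vary like the other groups.

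The methods' t-test, unadjusted, called 1 granulocyte gene between BM-MC SHPCs and control SHPCs (Mmp25), 3 for MHs against control SHPCs (Alox5, Fpr1, Spi1) and 2 between BM-MC SHPCs and MHs (Alox5, Pglyrp1), and none after Benjamini-Hochberg adjustment. Unadjusted, it called 11, 21 and 4 of the 129 genes tested in the other lists. The share of all probes that this t-test called was not computed, so its unadjusted counts are not read as a result. Leaving out samples gave 0 to 1 granulocyte calls (Fpr1, without BM-MC SHPC replicate 3) for MHs against control SHPCs. In that comparison the calls in the other lists were 2, but 0 to 4 with a sample left out, 1 with array medians, quantile normalization or only the groups compared, and 0 without scaling, with normexp, without a filter, with the slide set as a block, within the first slide set, with probe means and after adjusting the t-test.

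The replicate numbers do not pair the samples by their labels. Deviations of control SHPCs and BM-MC SHPCs of the same number correlated at 0.13, 0.078 and 0.17, and control SHPC replicate 2 correlated best with BM-MC SHPC replicate 1 (0.082). The replicate block left the difference of S100a9 at -1.84 (SE 0.22), and reduced the calls in the other lists for MHs against control SHPCs to 0. The cause of these changes was not tested.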
